A study of Homo sapiens with 27 samples.

Results

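The metallothionein genes described here are MT1E, MT1F, MT1G, MT1M, MT1X and MT2A, 6 of the 36536 genes in the deposited count table, taken by symbol and followed through all 9 groups of the study. The study measured polyadenylated RNA of MCF10A, a non-tumorigenic human mammary epithelial cell line, and asked whether responses to ligand combinations differ from the sum of the responses to single ligands. Cells were maintained in medium with horse serum, EGF at 20 ng/ml, hydrocortisone at 0.5 µg/ml, cholera toxin and insulin. They were seeded on collagen-1, washed after 6 h, kept in medium without growth factors for 18 h, and then given EGF (epidermal growth factor), OSM (oncostatin M) or TGFB (transforming growth factor beta) at 10 ng/ml each. The 9 groups had 3 libraries each, 27 in all. The group called T0 was collected when the ligands were added, and the other 8 were collected 24 h later: PBS as the vehicle control, EGF, OSM, TGFB, EGF+OSM, EGF+TGFB, OSM+TGFB and EGF+OSM+TGFB. All groups share 1 cell line and the same wash, so no group stayed in full growth medium, and the labels do not say whether hydrocortisone was present after the wash. The labels do not say whether the 3 libraries of a group came from separate cultures, so the p-values measure the spread between these libraries, which may be technical.

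Metallothioneins are small, cysteine-rich proteins that bind zinc, copper and toxic metals such as cadmium. Their genes lie in a cluster on chromosome 16, and zinc raises their transcription through MTF1, a zinc-sensing transcription factor that binds metal response elements in their promoters. Glucocorticoids and cytokines of the interleukin-6 family, to which OSM belongs, are also known inducers, and the classical route of the latter is the transcription factor STAT3. MT2A is the member best known for wide expression in human epithelia, while the MT1 genes differ more between tissues.

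In GENCODE v44 on GRCh38 the 6 genes span 75.6 kb of chromosome 16, and MT1G is the only one on the minus strand. MT2A (ENSG00000125148) covers chr16:56608584-56609497, MT1E (ENSG00000169715) chr16:56625475-56627112, MT1M (ENSG00000205364) chr16:56632659-56633981, MT1F (ENSG00000198417) chr16:56657731-56660698, MT1G (ENSG00000125144) chr16:56666730-56668065 and MT1X (ENSG00000187193) chr16:56682470-56684196. The promoter table of RefSeq (GRCh38.p14) held 2 of the 6, MT2A and MT1X, one of which was higher and the other lower with EGF. The 250 bases before each start site are shown 5′ to 3′ on the plus strand, chr16:56608334-56608583 for MT2A and chr16:56682220-56682469 for MT1X. Capitals mark matches to the core of the metal response element, TGCACNC or TGCGCNC on either strand.
MT2A: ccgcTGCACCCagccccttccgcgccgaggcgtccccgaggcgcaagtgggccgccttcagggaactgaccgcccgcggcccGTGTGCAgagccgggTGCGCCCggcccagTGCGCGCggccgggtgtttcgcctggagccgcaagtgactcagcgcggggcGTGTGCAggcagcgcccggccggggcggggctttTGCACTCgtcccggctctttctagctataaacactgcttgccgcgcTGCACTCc
MT1X: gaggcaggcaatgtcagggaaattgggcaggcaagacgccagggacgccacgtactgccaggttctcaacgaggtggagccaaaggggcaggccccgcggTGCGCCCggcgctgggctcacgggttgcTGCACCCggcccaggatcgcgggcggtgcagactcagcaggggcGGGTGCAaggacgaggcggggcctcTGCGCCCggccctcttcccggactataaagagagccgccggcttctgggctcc
The MT2A window held 7 matches to this core and the MT1X window 4. Over the 250 bases before the start of 35116 promoters in the same table, 24.8% held at least 1 match, 0.370% held as many as MT1X and 0.0313% as many as MT2A. The MT2A window also held 1 match to the AP-1 letters TGANTCA, beginning 104 bases before the start, and 1 match to the STAT letters TTCNNNGAA, beginning 194 bases before it. The MT1X window held neither, and each of these motifs was present in 6.57% of all promoters. The glucocorticoid response element, searched as its palindromic consensus, matched in neither window and in 0.327% of all promoters, and the TATA box letters TATAAA matched once in each window and in 10.7% of all promoters. The AP-1 match in MT2A overlaps a match to the antioxidant response element core TGACNNNGC. The MT1X window also held 1 match to that core, which was present in 10.9% of all promoters. The SMAD letters CAGAC had 1 match in the MT1X window, none in the MT2A window, and were present in 38.0% of all promoters. All motifs were searched on both strands, and a match or its absence describes letters in this window only.

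Total counts per library ran from 30143162 to 52947078 with a median of 39530985. Levels are given as CPM, the count over the library total after edgeR's TMM scaling, as mean ± SD over 3 libraries. All 10 mammary epithelial markers averaged above 1 CPM over the 27 libraries. Of markers of other cells, 3 of 7 for fibroblasts (DCN, COL1A1 and FAP), 2 of 5 for immune cells (CD14 and CD68) and 1 of 4 for endothelium (KDR) did, while PDGFRA, LUM, PTPRC, CD3E, PECAM1 and CDH5 averaged under 1 CPM. The fibroblast markers summed to 135 to 139.9 CPM with PBS, 54.2 to 65.8 with EGF, 206 to 239 with OSM, 254 to 258 with TGFB and 508 to 555 with OSM+TGFB. The immune markers summed to 54.4 to 61.3 CPM with PBS, 26.1 to 29.8 with EGF and 96.3 to 119 with OSM, and the endothelial ones to 31.3 to 35.3 CPM with PBS and 0.754 to 19.7 CPM in the treated groups. Their part in the metallothionein results was not tested.

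MT2A, MT1E, MT1X and MT1F were counted in all 27 libraries and passed the filter on low counts, so 4 of the 6 genes were tested. MT1G had 37 counts in all, in 17 of 27 libraries and never more than 7 in one. MT1M had 3 counts in all, 1 in OSM replicate 2 and 2 in OSM+TGFB replicate 3. A count of 0 in these libraries allows up to 3 counts, or 0.0566 to 0.105 CPM depending on the library, by counting error alone. MT1G and MT1M were therefore at or near the limit of this depth, and no change of theirs could be read.

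MT2A was the most abundant member per length of transcript in every group, and its group means spanned 18.1-fold. In the PBS libraries it stood at 381, 226 and 370 CPM, against 5306, 5186 and 6018 CPM with OSM and 6078, 5705 and 5927 CPM with EGF+OSM. EGF alone gave 3279, 3039 and 3262 CPM and TGFB alone 654, 658 and 631 CPM. None of these groups overlapped PBS. By count, not per length, MT2A ranked between 345 and 675 among all genes in the PBS libraries, between 11 and 14 with EGF, between 7 and 9 with OSM and at 4 or 5 with EGF+OSM. The 6 genes together took 0.0550% ± 0.0146 of all counts with PBS and 0.659% ± 0.0150 with EGF+OSM (SD, n = 3).

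**Figure D1:**
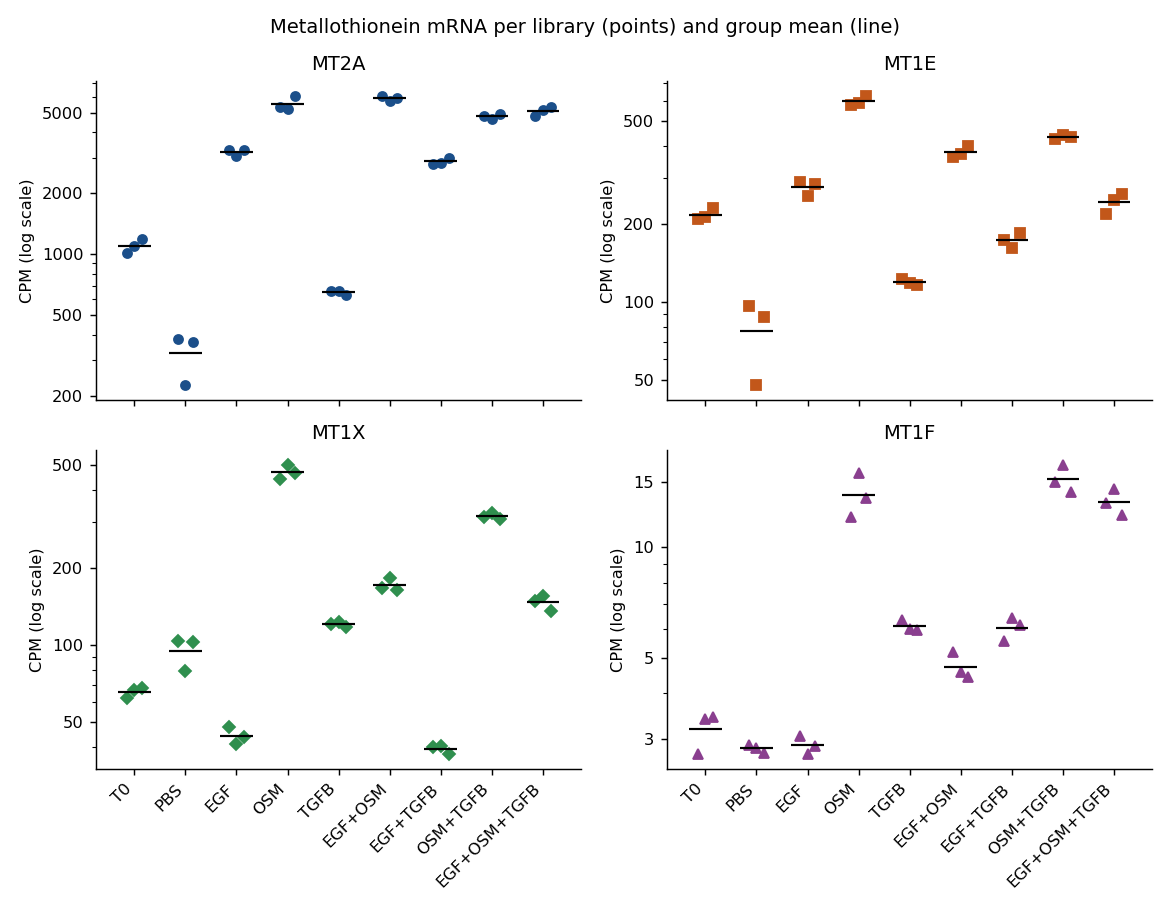
Level of MT2A, MT1E, MT1X and MT1F (CPM, log axes that differ between panels) in each of the 27 libraries by group; points are libraries and lines are means of 3. The OSM-containing groups are the highest for MT2A, while MT1X is lowest with EGF and EGF+TGFB, and PBS replicate 2 lies below the other PBS libraries for MT2A, MT1E and MT1X.

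MT1E, the next member after MT2A along the cluster, stood at 95.9, 47.6 and 87.2 CPM with PBS and at 578, 589 and 627 CPM with OSM. With EGF it was at 290, 256 and 285 CPM and with TGFB at 122, 118 and 116 CPM. PBS was thus the lowest group for MT1E, without overlap with any other.

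MT1X, at the other end of the cluster, stood at 104, 79.1 and 102 CPM with PBS and at 440, 503 and 467 CPM with OSM, but at only 47.8, 41.0 and 43.8 CPM with EGF. All 3 EGF libraries lay below all 3 PBS libraries. MT1F was the weakest of the tested members, at 2.90, 2.85 and 2.76 CPM with PBS, 3.07, 2.73 and 2.88 CPM with EGF, 12.1, 15.9 and 13.6 CPM with OSM and 6.32, 6.003 and 5.95 CPM with TGFB. The EGF and PBS libraries overlapped for MT1F and the OSM and TGFB libraries lay above both.

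OSM raised all 4 tested members against PBS, where 63.4% of all genes tested were called and 33.5% were called higher. A gene is called here when edgeR's quasi-likelihood test gave a Benjamini-Hochberg adjusted p under 0.05 over the 15575 genes tested. The fitted log2 fold change was 4.08 for MT2A (SE 0.13, adjusted p = 2.88e-17), 2.96 for MT1E (SE 0.16, adjusted p = 7.34e-13), 2.31 for MT1X (SE 0.08, adjusted p = 4.1e-18) and 2.29 for MT1F (SE 0.11, adjusted p = 3.4e-15), which is 16.9, 7.79, 4.94 and 4.89-fold. An increase of 2-fold or more was called for 10.1% of all genes. The median log2 fold change of the 4 members was 2.63, against 0.00226 over all genes tested. In RNA from whole cultures, a change in RNA per cell cannot be told apart from a change in the share of cells that carry it.

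EGF split the family. It raised MT2A by 3.29 (SE 0.13, adjusted p = 8.19e-16) and MT1E by 1.85 on the log2 scale (SE 0.15, adjusted p = 5.12e-10), while MT1X fell by 1.11 (SE 0.08, adjusted p = 3.87e-12), which is 2.15-fold. MT1F had a log2 fold change of 0.03 (SE 0.12, edgeR adjusted p = 0.845). EGF changed 73.5% of all genes tested by the same call, 34.9% upward and 38.6% downward, so 3 of 4 called members is near the background. An increase of 2-fold or more was called for 11.7% of all genes and a decrease of that size for 15.9%.

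TGFB raised all 4 tested members by smaller amounts, where 35.6% of all genes were called and 19.9% were called higher. MT1F and MT2A rose most, by 1.101 (SE 0.12, adjusted p = 2.61e-08) and 0.99 on the log2 scale (SE 0.12, adjusted p = 5.02e-07). MT1E rose by 0.63 (SE 0.15, adjusted p = 0.00214) and MT1X by 0.34 (SE 0.08, edgeR adjusted p = 0.00114). PBS replicate 2 weighs on these values: without it the log2 fold changes with TGFB were 0.79 for MT2A, 0.38 for MT1E and 0.22 for MT1X, all still called. With only the TGFB and PBS libraries in the fit, MT1E was no longer called (log2 fold change 0.63, edgeR adjusted p = 0.174).

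**Figure D2:**
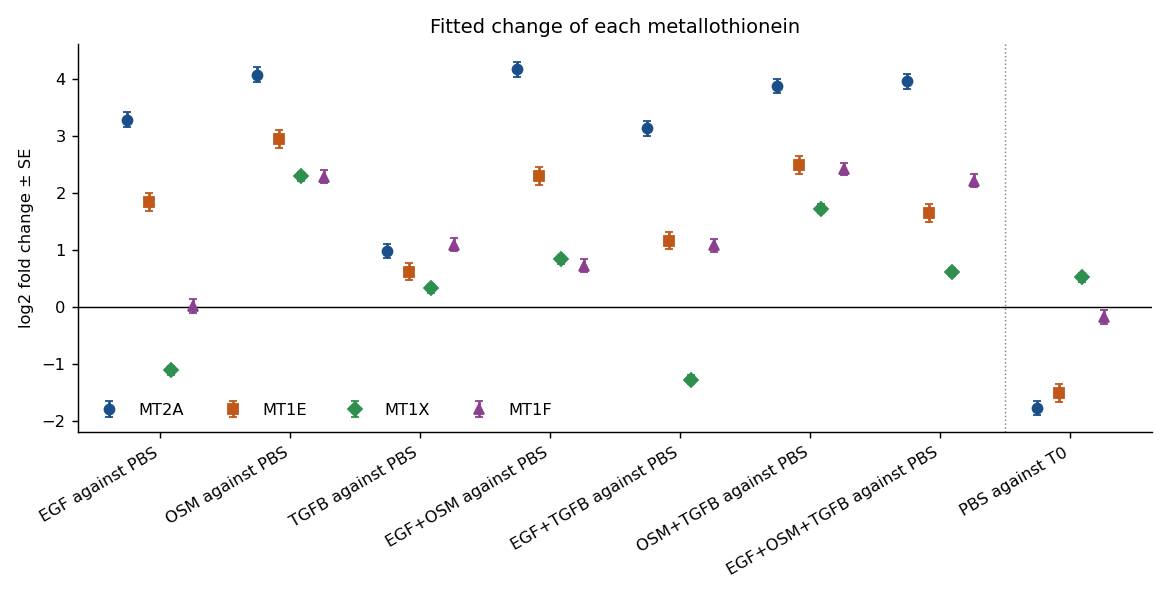
Fitted log2 fold change ± SE (edgeR) of the 4 tested metallothioneins for each treatment against PBS and, right of the dotted line, for PBS against T0. MT2A is the highest point in every ligand comparison but TGFB alone, where MT1F is, and MT1X is below 0 with EGF and EGF+TGFB.

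Between T0 and the PBS libraries 24 h later, MT2A and MT1E fell and MT1X rose, while 35.1% of all genes were called in that comparison, 16.2% higher and 18.9% lower. At T0 MT2A stood at 1018, 1099 and 1193 CPM, above all PBS libraries, and its log2 fold change of PBS against T0 was -1.76 (SE 0.12, adjusted p = 3.61e-10), rank 43 of 15575 genes by p. MT1E changed from 217 ± 11.8 to 76.9 ± 25.8 CPM (SD, n = 3; log2 fold change -1.50, SE 0.15, edgeR adjusted p = 1.44e-07). MT1X changed the other way, from 65.8 ± 3.03 to 95.1 ± 13.9 CPM (SD, n = 3; log2 fold change 0.53, SE 0.08, edgeR adjusted p = 7.91e-06). MT1F had a log2 fold change of -0.17 (SE 0.12, edgeR adjusted p = 0.283). Without PBS replicate 2 the values were -1.56 for MT2A, -1.25 for MT1E and 0.65 for MT1X, all called. In these 24 h without ligand MT1X and MT2A thus moved in opposite directions, as they did with EGF, but each with the sign turned: EGF left MT2A above its T0 level and MT1X below it, at 44.2 ± 3.41 CPM (SD, n = 3).

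With more than 1 ligand, every tested member differed from PBS in all 4 combinations. All 4 members were higher with EGF+OSM (77.2% of all genes called, 37.6% higher), OSM+TGFB (66% called, 34.2% higher) and the 3 ligands together (74.4% called, 37.7% higher). With EGF+TGFB, 3 were higher and MT1X was lower (73.7% called, 36.2% higher, 37.5% lower), at 39.4 ± 1.58 CPM (SD, n = 3; log2 fold change -1.27, edgeR adjusted p = 2.56e-13). EGF+OSM gave the highest MT2A level, 5903 ± 188 CPM (SD, n = 3; log2 fold change 4.18, SE 0.13, edgeR adjusted p = 1.05e-17). MT1E was at 379 ± 20.3 CPM, MT1X at 171 ± 9.54 CPM and MT1F at 4.73 ± 0.414 CPM in the same libraries (SD, n = 3), all 3 above PBS and all 3 below OSM alone.

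Adding EGF to OSM lowered 3 of 4 members, in a comparison that called 61.7% of all genes and called 31.8% lower. MT1F fell by 1.56 (SE 0.11, adjusted p = 1.17e-11), MT1X by 1.46 (SE 0.08, adjusted p = 1.9e-13) and MT1E by 0.66 on the log2 scale (SE 0.15, edgeR adjusted p = 0.000528). MT2A was at 0.10 (SE 0.12, edgeR adjusted p = 0.471). EGF alone had raised MT1E, and MT1F had not been called. Adding EGF to OSM+TGFB called 52.2% of all genes, 25.9% lower; MT1X fell by 1.11 (adjusted p = 2.47e-11) and MT1E by 0.84 (adjusted p = 5.93e-05), while MT1F was at -0.21 (adjusted p = 0.0902) and MT2A at 0.09 (edgeR adjusted p = 0.563). Adding EGF to TGFB called 69.4% of all genes, 33.9% higher and 35.5% lower, and moved members both ways: MT2A rose by 2.15 (adjusted p = 4.84e-13), MT1E rose by 0.54 (adjusted p = 0.00268), MT1X fell by 1.61 (adjusted p = 7.86e-15) and MT1F was at -0.01 (edgeR adjusted p = 0.938). MT1X was thus lower whenever EGF was present, in all 4 comparisons of EGF with its background.

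Adding OSM raised all 4 members over EGF, TGFB and EGF+TGFB alike, where it called 34.9%, 56.6% and 26.4% of all genes and called 17.8%, 30.1% and 13.6% higher. Over EGF, MT1X rose by 1.95 (SE 0.08, adjusted p = 8.97e-16, rank 21 of 15575 genes by p), MT2A by 0.89 (adjusted p = 2.65e-06), MT1F by 0.71 (adjusted p = 2.99e-05) and MT1E by 0.45 (edgeR adjusted p = 0.0198). An increase of 2-fold or more with OSM over EGF was called for 2.7% of all genes, and MT1X was the only tested member to reach it. Over EGF+TGFB the log2 changes were 1.89 for MT1X, 1.13 for MT1F, 0.83 for MT2A and 0.48 for MT1E. Over TGFB they were 2.89 for MT2A, 1.87 for MT1E, 1.40 for MT1X and 1.33 for MT1F. The MT1E rises over EGF and over EGF+TGFB were the least firm. The first was not called without EGF replicate 2 (edgeR adjusted p = 0.0822) or EGF+OSM replicate 3 (0.0752), the second not without EGF+TGFB replicate 2 (0.0732) or EGF+OSM+TGFB replicate 3 (0.0716), and neither was called with unscaled library totals (0.0772 and 0.071).

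Over EGF and over EGF+OSM, TGFB moved MT1E and MT1F in opposite directions, while TGFB alone had raised both. Adding it to EGF called 54.6% of all genes (27% higher, 27.7% lower), lowered MT1E from 277 ± 18.1 to 173 ± 11.5 CPM and raised MT1F from 2.89 ± 0.169 to 6.04 ± 0.442 CPM (SD, n = 3; log2 changes -0.68 and 1.06, edgeR adjusted p = 0.000517 and 2.28e-08). Adding it to EGF+OSM called 61.1% of all genes (31.6% higher, 29.5% lower), lowered MT1E from 379 ± 20.3 to 242 ± 22.4 CPM and raised MT1F from 4.73 ± 0.414 to 13.2 ± 1.09 CPM (SD, n = 3; log2 changes -0.65 and 1.49, edgeR adjusted p = 0.000639 and 1.15e-11). Over OSM, where 51.6% of all genes were called and 25.6% were lower, MT1E fell by 0.46 (adjusted p = 0.0114) and MT1X by 0.57 (adjusted p = 7.19e-07), while MT1F was at 0.14 (edgeR adjusted p = 0.27). MT1X was at -0.16 over EGF (adjusted p = 0.0904) and fell by 0.22 over EGF+OSM (edgeR adjusted p = 0.014), a call lost without EGF+OSM replicate 2 (0.0781) or EGF+OSM+TGFB replicate 3 (0.0847).

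MT2A was a little lower with TGFB over EGF, OSM and EGF+OSM, by log2 changes of -0.15, -0.19 and -0.21 (SE 0.12 each), and none of the 3 was called (edgeR adjusted p = 0.279, 0.172 and 0.126). All 9 groups share 1 estimate of the spread per gene. Without PBS replicate 2 the changes were -0.15, -0.19 and -0.21 with an SE of 0.06 each, and all 3 were called (edgeR adjusted p = 0.0285, 0.00741 and 0.00323). They were also called with only the groups compared in the fit, and with unscaled totals, where the changes were -0.35, -0.35 and -0.43. MT1X with TGFB over EGF was likewise called without PBS replicate 2 (edgeR adjusted p = 0.0286), without EGF replicate 2 (0.0444) and with unscaled totals, where its change was -0.36.

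The level with a combination was below the one given by the sum of the single responses in nearly every case tested. The sum was taken over log2 fold changes against PBS, and the departure is the observed log2 fold change minus that sum, tested by edgeR as a contrast. A sum of log2 fold changes is a product of fold changes, so the size of a departure depends on this scale. Sums of the increases in CPM were not tested. Of the 16 departures tested, 4 members in 4 combinations, 15 were called and all 15 were negative. In all but 1 of these the sum was an increase and the observed increase was smaller, while for MT1X with EGF+TGFB the sum was a decrease of -0.77 and the observed decrease, -1.27, was larger. Over all genes the test called 38.7% for EGF+OSM (23% negative), 29.8% for EGF+TGFB (16.5% negative), 23.3% for OSM+TGFB (13.7% negative) and 48% for the 3 ligands together (25.9% negative). The 4 departures of a gene share its PBS and single-ligand libraries and are not independent of each other.

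For MT2A with EGF+OSM the single responses summed to 7.37 on the log2 scale and 4.18 was observed, a departure of -3.19 (SE 0.17, adjusted p = 1.96e-12, rank 46 of 15575 genes by p). The observed level was thus 9.15-fold below the one the sum gives. MT1E departed by -2.51 (SE 0.21, adjusted p = 5.44e-09) and MT1F by -1.58 in the same libraries (SE 0.16, edgeR adjusted p = 1.72e-08). MT1X departed by -0.35 (SE 0.11, edgeR adjusted p = 0.012), its fall with EGF and its rise with OSM summing to 1.19998 against 0.85 observed. This last call was lost with unscaled totals (departure -0.28, edgeR adjusted p = 0.0545).

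MT2A with EGF+OSM did not differ from OSM alone by the test, while MT1F with EGF+OSM, at 4.73 ± 0.414 CPM, was nearer to PBS, at 2.84 ± 0.0706 CPM, than to OSM, at 13.9 ± 1.93 CPM (SD, n = 3). With OSM+TGFB all 4 members departed, by -1.19 for MT2A, -1.09 for MT1E, -0.96 for MT1F and -0.91 for MT1X, and the MT1X departure ranked 99 of 15575 genes by p. With EGF+TGFB the departures were -1.15 for MT2A, -1.31 for MT1E and -0.50 for MT1X, while MT1F, at -0.04 (SE 0.16, edgeR adjusted p = 0.894), had 1.13 summed and 1.09 observed. With all 3 ligands they were -4.40 for MT2A, -3.78 for MT1E, -1.20 for MT1F and -0.92 for MT1X. Without PBS replicate 2 the departures of MT2A ranged from -0.94 to -3.98 and those of MT1E from -0.84 to -3.28, all called. Those of MT1X ranged from -0.24 to -0.79, also all called.

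**Figure D3:**
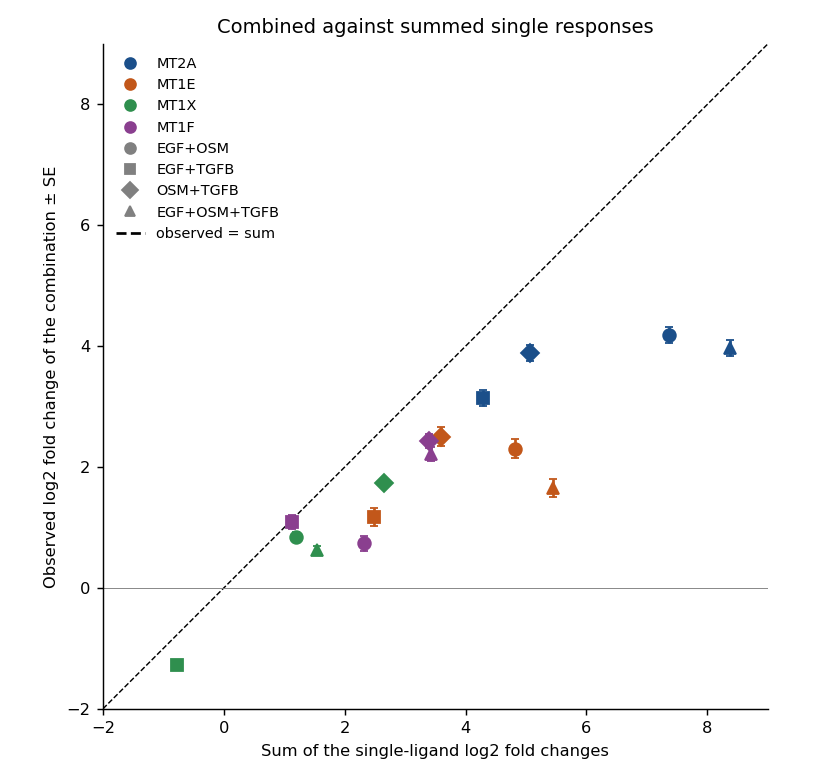
Observed log2 fold change ± SE of each combination against PBS (vertical) by the sum of its single-ligand log2 fold changes (horizontal) for the 4 tested metallothioneins; the dashed line marks equality. The 15 called departures lie below the line, MT1F with EGF+TGFB lies on it, and MT2A with EGF+OSM lies at 4.18 against a sum of 7.37.

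The order of the group means differed between the members. For MT2A it ran EGF+OSM, OSM, EGF+OSM+TGFB, OSM+TGFB, EGF, EGF+TGFB, T0, TGFB and PBS. Neighbouring pairs among the 4 groups with OSM were not told apart (edgeR adjusted p = 0.471, 0.443 and 0.563). The first and last of these groups differed (log2 difference 0.30, edgeR adjusted p = 0.028). EGF and EGF+TGFB were not told apart either. For MT1E the order ran OSM, OSM+TGFB, EGF+OSM, EGF, EGF+OSM+TGFB, T0, EGF+TGFB, TGFB and PBS, with 4 of 8 neighbouring pairs not told apart. For MT1X it ran OSM, OSM+TGFB, EGF+OSM, EGF+OSM+TGFB, TGFB, PBS, T0, EGF and EGF+TGFB, and 7 of 8 neighbouring pairs differed, all but the last. For MT1F it ran OSM+TGFB, OSM, EGF+OSM+TGFB, TGFB, EGF+TGFB, EGF+OSM, T0, EGF and PBS, with 5 of 8 pairs not told apart. No neighbouring pair among the 3 highest groups of MT1F was told apart, nor any among its 3 lowest. Groups that contain OSM but not EGF were thus among the 2 highest for MT1E, MT1X and MT1F, and EGF+OSM was the highest for MT2A alone.

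The make-up of the family changed with the ligands even within a library, where no scaling enters. MT2A made up 64.9% ± 1.18 of the 6 genes' counts with PBS and 92.9% ± 0.193 with EGF+TGFB (SD, n = 3). For 100 MT2A counts there were 27.3 to 35.0 MT1X counts in the PBS libraries, 18.4 to 18.7 with TGFB, 7.76 to 9.69 with OSM, 5.70 to 6.12 at T0, 1.34 to 1.46 with EGF and 1.26 to 1.43 with EGF+TGFB. EGF and EGF+TGFB overlapped each other and lay below every other group. MT1E stood at 21.1 to 25.2 counts per 100 MT2A counts with PBS and at 4.53 to 4.91 with all 3 ligands, the lowest group. Per length of the canonical transcript, MT1X was above MT1E with PBS (235 ± 34.4 against 103 ± 34.5 CPM per kb) and OSM (1163 ± 77.7 against 802 ± 34.7 CPM per kb), and below it with EGF (109 ± 8.43 against 371 ± 24.3 CPM per kb; SD, n = 3). Its mean was also above that of MT1E with TGFB, OSM+TGFB and all 3 ligands (362 ± 25.1 against 325 ± 29.97 CPM per kb in the last), and also below it at T0 (163 ± 7.49 against 291 ± 15.8 CPM per kb), with EGF+OSM and with EGF+TGFB (SD, n = 3). The order of these 2 members per length thus varied among groups without EGF. With all 3 ligands the values overlapped within their SD, and no order per length was tested.

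**Figure D4:**
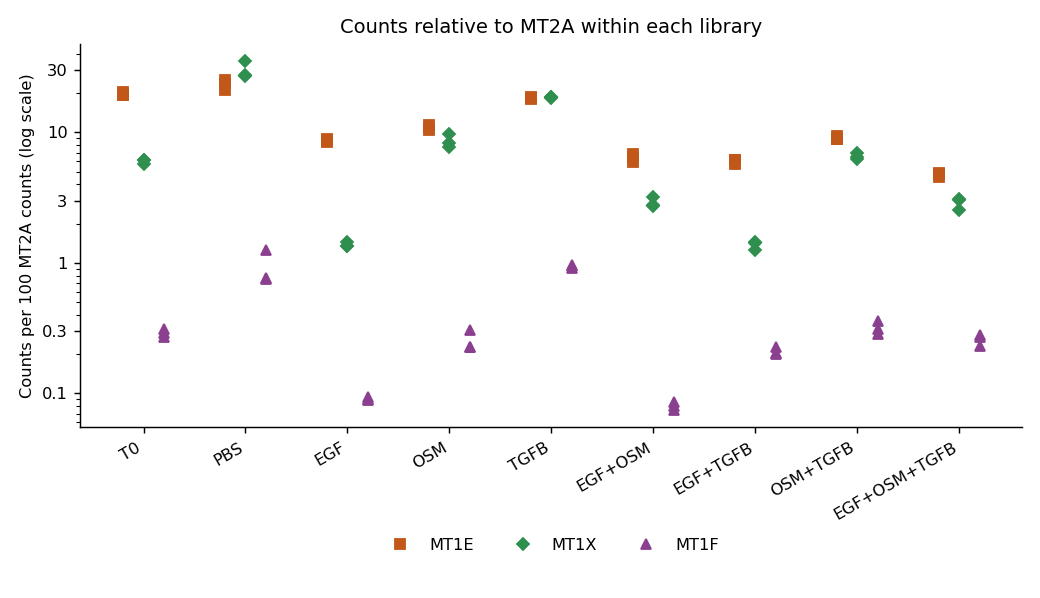
Counts of MT1E, MT1X and MT1F per 100 MT2A counts within each library (log axis, not per length) by group; each point is 1 library, and points can overlap. MT1X runs from 27.3 to 35.0 with PBS down to 1.34 to 1.46 with EGF.

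Across the 27 libraries the log2 levels of MT2A and MT1E had a Pearson r of 0.886, those of MT1X and MT1F 0.742, and those of MT1X and MT2A 0.385; these libraries share 9 treatments and are not independent points. Sequence shared between members limits how far their counts can be separated. Of the 31-base words of the canonical transcript, 31.5% in MT2A, 54.0% in MT1X, 22.6% in MT1E and 13.9% in MT1F also occur in a transcript of another gene. For MT1X the largest part, 36.4% of its words, was shared with a gene that is not a member. It shared 13.4% with MT2A, 6.15% with MT1F and 2.94% with MT1E. MT2A shares 13.5% of its words with MT1X. Counts assigned to 1 member can therefore include reads of another, and how the quantification divided them was not tested.

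Of 15 other metallothionein genes and pseudogenes, 2 passed the filter. MT1L, a transcribed pseudogene inside the cluster at chr16:56617563-56618680, stood at 1.201, 0.431 and 0.733 CPM with PBS and at 53.5, 53.5 and 49.4 CPM with all 3 ligands (log2 fold change 6.07, SE 0.22, edgeR adjusted p = 8.17e-17). It had a Pearson r of 0.986 with MT2A over the 27 libraries. There were 0.191 to 0.315 MT1L counts per 100 MT2A counts in the PBS libraries and 0.926 to 1.11 with all 3 ligands, ranges that do not overlap. All 31-base words of the annotated MT1L transcript occur in the annotated transcript of another gene. The MT1L counts are therefore uncertain, though the annotation used for the deposited counts may differ from this one. MT1JP, another pseudogene, averaged 0.266 CPM with PBS and 1.08 CPM with OSM (log2 fold change 2.03, SE 0.37, edgeR adjusted p = 3.39e-05). It had only 6 to 15 counts per PBS library and 34 to 50 with OSM. Of the 31-base words of MT1E, 9.64% also occur in MT1JP. The MT1JP counts can therefore include reads of MT1E, which was not tested. MT3, the member known from brain, and MT1CP and MT1IP had no count in any library.

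The transporters that set cellular zinc moved in different directions from each other. SLC30A1, the zinc exporter of the plasma membrane and a known target of MTF1, fell with every treatment, while MT2A rose. It stood at 199 ± 15.5 CPM with PBS, 130 ± 2.22 with EGF, 60.0 ± 3.59 with OSM, 159 ± 8.27 with TGFB and 51.7 ± 1.47 with all 3 ligands (SD, n = 3). The log2 fold changes were -0.62 (adjusted p = 5.88e-09), -1.73 (adjusted p = 4.37e-17), -0.33 (adjusted p = 0.000317) and -1.95 (edgeR adjusted p = 1.58e-18). From T0 to PBS SLC30A1 rose by 0.28 (edgeR adjusted p = 0.00147) while MT2A fell. MT1X did not always move against SLC30A1. It was lower with EGF and EGF+TGFB (log2 fold changes -1.11 and -1.27) and higher from T0 to PBS (0.53), as SLC30A1 was. In the other treatments MT1X rose. Neither zinc nor the activity of MTF1 was measured, and the cause of these changes was not tested. Of the 7 zinc exporters and vesicle transporters tested, 1 rose and 2 fell with OSM, 2 rose and 3 fell with EGF, and 2 fell with TGFB, with median log2 fold changes of -0.10, 0.05 and -0.08 against 0.00226, -0.07 and -0.00871 over all genes.

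Of 12 zinc importers of the SLC39 family tested, 7 rose and 2 fell with OSM, 7 rose and 4 fell with EGF, and 4 rose and none fell with TGFB, with median log2 fold changes of 0.31, 0.17 and 0.05. For these and the other lists, the share over all genes was 33.5% higher and 29.8% lower with OSM, 34.9% and 38.6% with EGF, and 19.9% and 15.8% with TGFB, and no list was tested against other genes. SLC39A8 stood at 20.5 to 23.2 CPM in the PBS libraries and at 163 to 257 CPM with OSM (log2 fold change 3.24, SE 0.16, adjusted p = 1.54e-13). SLC39A14, the importer known from the acute-phase response of liver, stood at 101 to 112 CPM with PBS and 375 to 545 CPM with OSM (log2 fold change 2.09, SE 0.10, edgeR adjusted p = 5.9e-15). EGF added to OSM left SLC39A8 at 81.8 ± 8.18 CPM and SLC39A14 at 153 ± 3.47 CPM (SD, n = 3), below the OSM libraries without overlap. In the same comparison MT1F, MT1X and MT1E were also lower (log2 changes -1.56, -1.46 and -0.66). MT2A was not told apart from OSM alone. With TGFB, SLC39A14 rose by 0.88 (edgeR adjusted p = 7.49e-08) and SLC39A8 was at -0.22 (edgeR adjusted p = 0.319). SLC39A8 and SLC39A14 were chosen for this comparison after their values were seen. Of 13 genes of copper handling, 7 rose and 4 fell with EGF, 3 rose and 3 fell with OSM, and 2 rose with TGFB, so the counts called with OSM and TGFB were below the all-gene shares of 63.4% and 35.6%.

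**Figure D5:**
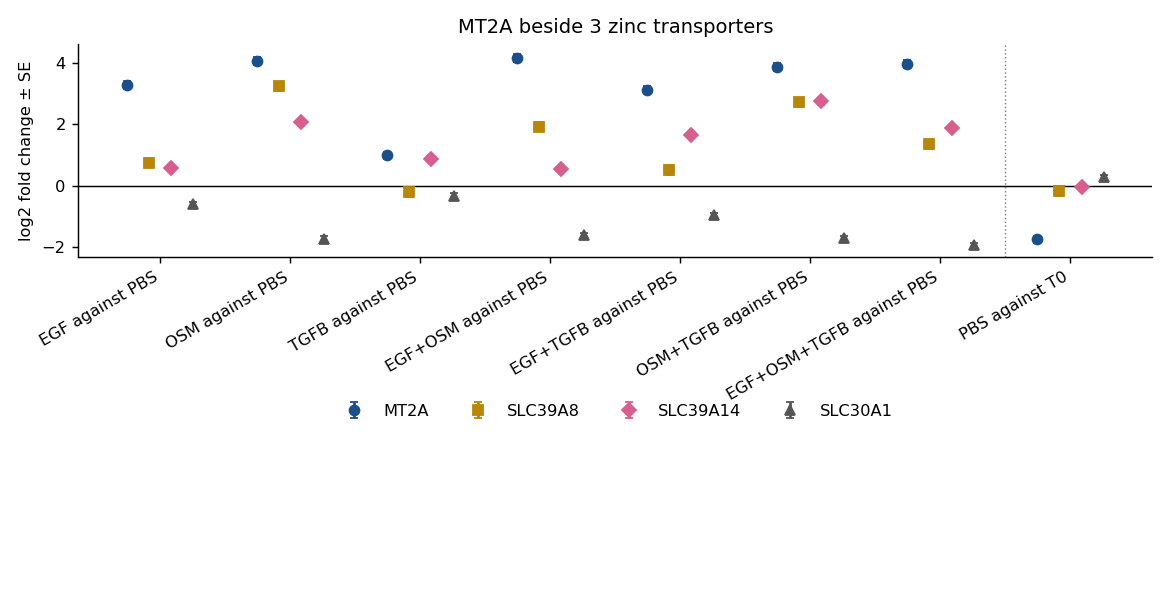
Fitted log2 fold change ± SE (edgeR) of MT2A, the zinc importers SLC39A8 and SLC39A14 and the zinc exporter SLC30A1 for each treatment against PBS and, right of the dotted line, for PBS against T0. SLC30A1 lies below 0 in all 7 treatments and MT2A above 0, with the reverse for PBS against T0.

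Of the known regulators, the MTF1 mRNA was lower with EGF and OSM, and the STAT3 mRNA was higher with OSM. MTF1 was at 51.5 ± 1.55 CPM with PBS, and was lower with EGF (42.0 ± 2.44 CPM; log2 fold change -0.30, edgeR adjusted p = 5.89e-05) and with OSM (43.4 ± 2.72 CPM; -0.25, edgeR adjusted p = 0.000611; SD, n = 3). With TGFB it was at -0.14 (edgeR adjusted p = 0.0637). STAT3 rose with OSM from 283 ± 16.6 to 633 ± 73.5 CPM (log2 fold change 1.16, edgeR adjusted p = 3.59e-14) and fell with EGF to 178 ± 7.52 CPM (-0.67, edgeR adjusted p = 8.02e-10; SD, n = 3). NR3C1, which encodes the glucocorticoid receptor, fell by 0.55 with EGF and by 0.44 with OSM, and was at -0.11 with TGFB (edgeR adjusted p = 0.0856). Of 13 regulators tested, 2 rose and 11 fell with EGF, 4 rose and 7 fell with OSM, and 3 fell with TGFB, where 38.6%, 29.8% and 15.8% of all genes fell. The count called with TGFB was below the share of 35.6% over all genes. These are mRNA levels, and the activity of the regulators was not measured.

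Other programmes known to include or to accompany metallothionein induction differed in direction. Glucocorticoid-responsive genes and targets of the oxidative stress factor NRF2 more often fell than rose with each single ligand. Heat-shock genes went both ways, and no list was tested against other genes. The shares of all genes called lower under EGF, OSM and TGFB were 38.6%, 29.8% and 15.8%, and those called higher 34.9%, 33.5% and 19.9%. Of 15 glucocorticoid-responsive genes, 1 rose and 13 fell with EGF, 3 rose and 10 fell with OSM, and 2 rose and 7 fell with TGFB, with median log2 fold changes of -1.32, -0.51 and -0.17 against -0.07, 0.00226 and -0.00871 over all genes. Most members of that list that were called with EGF fell, and 1 rose. TSC22D3, a classical glucocorticoid target, fell from 384 to 26.4 CPM with EGF (log2 fold change -3.86), while ANGPTL4, which is also raised by other signals, rose from 29.8 to 564 CPM (4.24). HSD11B2, the enzyme that inactivates cortisol, was at 492 ± 84.9 CPM with PBS and 9.33 ± 2.37 CPM with OSM (SD, n = 3; log2 fold change -5.71, edgeR adjusted p = 5.12e-14). From T0 to PBS, when MT2A and MT1E fell, 9 of these 15 genes rose and 1 fell, where 16.2% of all genes rose and 18.9% fell, and HSD11B2 rose by 1.36 (edgeR adjusted p = 1.75e-05). Of 12 targets of NRF2, the transcription factor of the oxidative stress response, 4 rose and 7 fell with EGF, 2 rose and 9 fell with OSM, and 7 fell with TGFB. NFE2L2, which encodes NRF2, fell by 1.05, 0.41 and 0.38 with EGF, OSM and TGFB. Of 10 heat-shock genes, 7 rose and 3 fell with EGF, 4 rose and 4 fell with OSM, and 2 rose and 5 fell with TGFB.

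The genes on either side of the cluster, within 408 kb of it, moved in both directions. Of 9 tested, 5 rose and 4 fell with EGF, 4 rose and 3 fell with OSM, and 4 rose and 2 fell with TGFB, where 73.5%, 63.4% and 35.6% of all genes were called. BBS2, 25.9 kb outside the MT2A end, fell by 0.99, 0.34 and 0.24 under EGF, OSM and TGFB (edgeR adjusted p = 4.44e-13, 4.99e-05 and 0.00318). NUP93, 45.9 kb outside the MT1X end, rose by 1.76 with EGF (adjusted p = 1.56e-14) and 1.15 with OSM (edgeR adjusted p = 5.38e-11), though MT1X fell with EGF. BBS2 and NUP93 are outside the naming rule and were chosen, with values known, as the nearest neighbour on each side.

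The genes whose levels over the 27 libraries were most like those of the family were named by Pearson r with the mean log2 level of the 4 tested members, among 12654 genes above 1 CPM on average. The 10 highest were NNMT (r = 0.970), TENM2 (0.966), SLC16A1 (0.966), RAB31 (0.959), LYN (0.956), IDH2 (0.955), METTL9 (0.954), SHISA5 (0.952), CTSL (0.950) and FAM83B (0.948), and the next gene followed at the same value to 3 digits. NNMT averaged 55.8 CPM with PBS, 99.1 with EGF, 614 with OSM and 128 with TGFB. For single members the 2 closest were SNX10 (0.982) and MTHFD1L (0.975) for MT2A, CBX3 (0.916) and STMN3 (0.914) for MT1E, SEMA4B (0.967) and PROS1 (0.963) for MT1X, and NREP (0.966) and APPL2 (0.966) for MT1F. No gene was shared between these 4 pairs. These correlations describe 9 groups of 3 libraries and carry no test.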

How the data were processed

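Polyadenylated RNA of 27 MCF10A libraries was analysed from the authors' deposited table of estimated counts, whole numbers for 40487 rows with gene symbols. Per the submitters' processing notes the tools were Trim Galore 0.4.3, cutadapt 1.10, FastQC 0.11.5, kallisto 0.46.2 and R 3.5.0, with builds GRCh38.p5 and hg38; their order and settings are not given in the sources used here. Rows sharing a symbol were summed to 36536 genes. edgeR 4.0.16 (R 4.3.3) kept 15575 genes by filterByExpr and fitted all 9 groups by quasi-likelihood with TMM scaling and 18 residual degrees of freedom (common biological coefficient of variation 7.83%). P-values were adjusted over all genes within each of 21 comparisons, and SE is the log2 change over the square root of F. The fit was tested on simulated counts. No value column was left unused. The members and lists were chosen with earlier results of these data known. Named genes were the 6 members, set regulators, up to 3 called genes of largest change per list and comparison, and the genes of most similar pattern; exceptions are marked. Alternatives were other scalings, DESeq2 1.42.0, other filters and row handling, a prior count of 2, a 2-fold limit, a replicate block, fits of only the groups compared and each library left out.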

Additional observations from a re-analysis of the deposited data

Results flagged for a closer look

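For 11 of the 12 pair combinations of a tested member, the effect of 1 ligand differed with the presence of the other, by edgeR's test of the difference itself. With EGF+OSM the departures from the summed log2 responses were -3.19 for MT2A, -2.51 for MT1E, -1.58 for MT1F and -0.35 for MT1X. With OSM+TGFB they were -1.19 for MT2A, -1.09 for MT1E, -0.96 for MT1F and -0.91 for MT1X. With EGF+TGFB they were -1.15 for MT2A, -1.31 for MT1E and -0.50 for MT1X. Over all genes 38.7%, 23.3% and 29.8% were called in these 3 tests. The departures of MT2A, MT1E and MT1X rest on PBS libraries that include the low replicate 2. Without it they were smaller in size and still called, that of MT1X with EGF+OSM at -0.24 (edgeR adjusted p = 0.0427). This MT1X call was lost with unscaled library totals.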

How the results depend on the processing

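The 4 tested members gave 84 values over 21 comparisons, and 39 alternatives gave 3276 further values, of which 3215 kept direction and call, 35 lost the call, 12 gained it and 14 changed sign. All sign changes were of MT1F values near 0 that were not called. For EGF against PBS, MT1F was at -0.037 with upper-quartile scaling, -0.0014 with at least 1 CPM in 3 libraries and -0.015 to 0.071 with 1 library left out. For EGF added to TGFB it was at 0.00012 with DESeq2 size factors, 0.037 without a filter on low counts, 0.0017 with DESeq2 and -0.062 to 0.047 with 1 library left out. For TGFB added to OSM it was at -0.019 with unscaled library totals. Its departure with EGF+TGFB was 0.0062 without a filter and -0.091 to 0.017 with 1 library left out. STAT3 with TGFB against PBS, also not called, was at -0.058 to 0.023 with 1 library left out.

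With an added limit of 2-fold, the number of members called was 1 of 4 for TGFB against PBS, 2 for EGF+OSM against PBS, 1 for OSM added to EGF, 1 for TGFB added to EGF, 0 for TGFB added to OSM, 1 for TGFB added to EGF+OSM, 2 for OSM added to EGF+TGFB, 1 for EGF added to OSM+TGFB and 2 for the OSM+TGFB departure, and 30 of 32 neighbouring groups were not told apart, against 14. The 0 for TGFB added to OSM stands against 2 called by edgeR without the limit. Only the comparisons with the largest relative drop are listed here. Other comparisons also lost members with this limit, in smaller proportion. For TGFB added to EGF, 4 members were called with unscaled totals, against 2, and 2 to 4 with 1 library left out, 4 being without PBS replicate 2. With 1 library left out, 8 to 15 neighbouring groups were not told apart, 8 being without PBS replicate 2. The cause was not tested. Unscaled totals moved the median over all genes by up to -0.32 on the log2 scale against TMM (EGF+OSM+TGFB against PBS).

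In 20 of 36 pairs of groups, the deviations of same-numbered libraries from their group means all correlated with r over 0.1. Over all 36 pairs these correlations ran from -0.08 to 0.48. Of 108 library comparisons, 95 were highest with the same number. This is a hint from the data and not from the labels, and these counts were not tested against chance. With the replicate number as a block, all 84 values kept direction and call, and MT2A, EGF against PBS, was at 3.30. Depth limits MT1G and MT1M, whose counts were too few for the test.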
